A study of Mus musculus with 6 samples.

Results

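Transcripts of the inhibitor of apoptosis proteins (IAPs), of their antagonist Diablo and of the initiator caspase machinery were examined in the cortex of HtrA2 knockout mice and their wild type littermates. Members were all probe sets annotated to 1 gene symbol among Xiap, Birc2, Birc3, Birc6, Diablo, Apaf1, Casp9 and Casp8, which gave 24 of the 45037 probe sets tested and covered 8 of the 18193 genes named on the array. The HtrA2 KO group held 3 arrays from mice lacking HtrA2, and the WT group held 3 arrays from HtrA2 wild type littermates. All were taken at postnatal day 29, and total RNA was biotin labelled for an Affymetrix expression array. The labels do not give the design of the knockout allele, the strain, or whether each array came from its own animal, so the tests measure the spread between these samples.

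HtrA2 is a protease that sits between the inner and outer mitochondrial membranes. When mitochondria become permeable, HtrA2 and Diablo (also called Smac) reach the cytosol, where each binds IAPs through a short motif at its processed amino terminus, and HtrA2 can also cleave IAPs. Released cytochrome c assembles Apaf1 into the apoptosome, which activates caspase-9, and XIAP inhibits caspase-9 and the executioner caspases. Caspase-8 starts the separate route from death receptors, on which the cellular IAPs encoded by Birc2 and Birc3 act as ubiquitin ligases of the receptor complex.

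Levels are RMA values, background-corrected and normalized array signals, on the log2 scale, differences are HtrA2 KO minus WT, and each ± after a difference is its standard error, with 3 arrays per group. Tests are limma's moderated test, two-sided. P-values were adjusted over the 45037 probe sets by the method of Benjamini and Hochberg, and a probe set is called at an adjusted p under 0.05.

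The knocked-out gene bore out the labels at 1 of its 2 probe sets. Htra2 1460495_s_at was at 6.42, 7.08 and 6.45 in the KO arrays, against 8.89, 8.86 and 9.02 in the WT arrays (difference -2.27 ± 0.17, adjusted p = 0.00227). Htra2 1436269_s_at was higher in the KO arrays, by 1.11 ± 0.08, and the sources do not say where its probes lie relative to what the knockout changed. KO array 2 correlated least with the other arrays of its group, and without it 3037 probe sets were called in place of 796. By Xist and Y-linked transcripts, KO array 3 and WT array 1 came from females and the other 4 arrays from males, so the sexes were balanced between the groups. Neuronal markers were bright everywhere, with Snap25 at 13.64 to 13.73 in the KO arrays and 13.88 in each WT array.

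None of the 24 probe sets was called, where the background over all probe sets was 1.77% called, 0.884% higher and 0.884% lower in KO. The smallest adjusted p among them was 0.165, at Apaf1. At an unadjusted p under 0.05 there were 2 member probe sets, 1 of Apaf1 and 1 of Xiap, where the background was 16.9%. The groups did not overlap at 4 of the 24, 3 higher and 1 lower in KO, against 23.2% of all probe sets. The median absolute difference was 0.091 for the members and 0.098 for all probe sets. A difference that misses the threshold does not show equal levels, so 95% intervals are given for the main probe set of most members. For 20 of the 24 probe sets the 95% interval lay within 0.5 log2 units of 0, and for all 24 within 1 log2 unit, which is a 2-fold change. The interval plot of the 24 probe sets shows these limits.

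**Figure D1:**
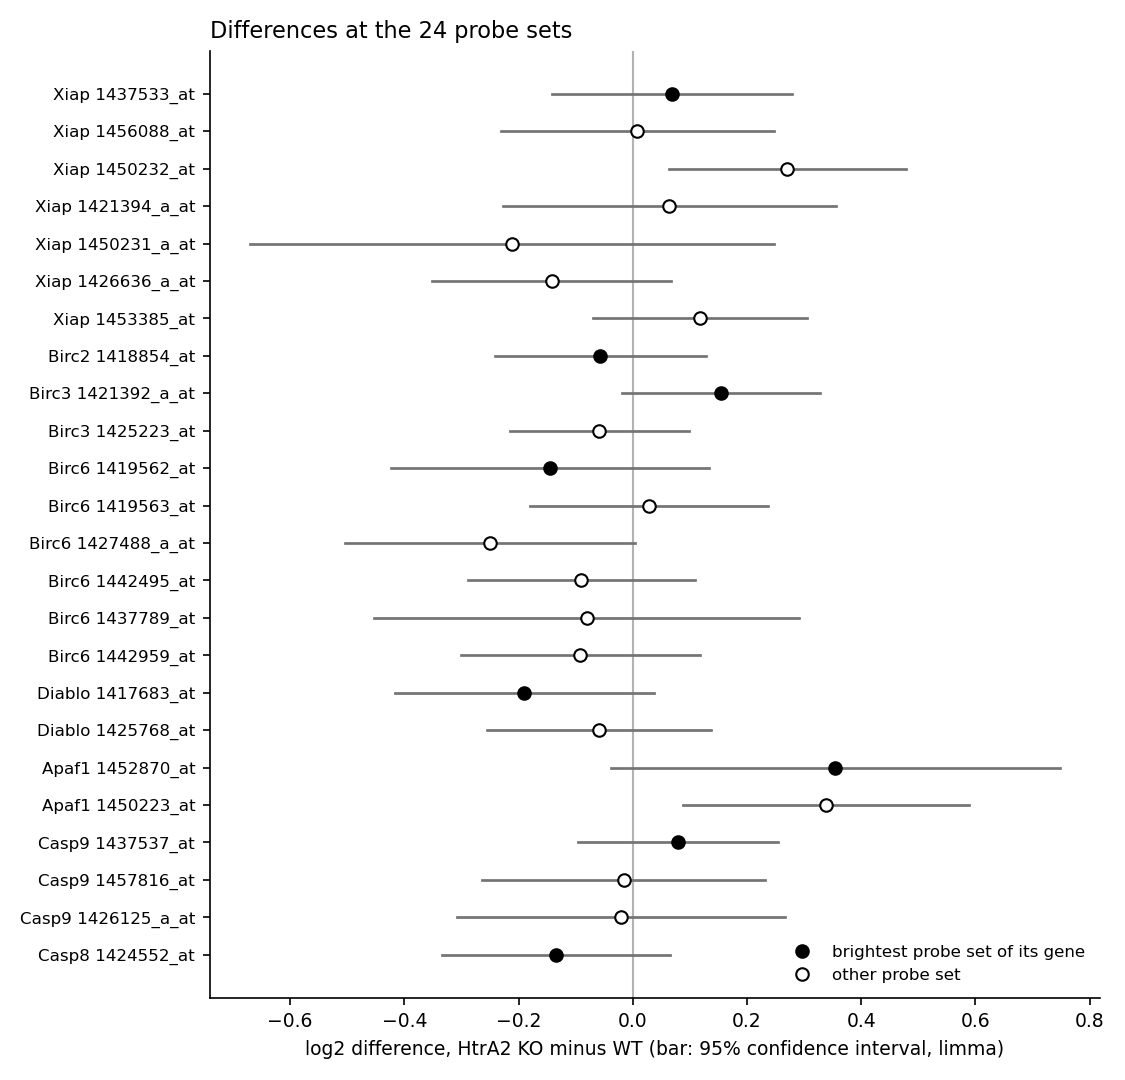
Log2 differences, HtrA2 KO minus WT, at the 24 probe sets (points) with limma's 95% confidence intervals (bars), n = 3 arrays per group; filled points mark the brightest probe set of each gene. The intervals of Xiap 1450232_at and Apaf1 1450223_at lie above 0 before adjustment, and none of the 24 passed after it.

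Levels of different probe sets cannot be ranked against each other, since probes differ in binding strength. As a guide to dim signals, 16 measured genes typical of other tissues, such as Alb and Umod, averaged between 3.62 and 8.98 at their brightest probe sets, with a median near the middle of the array, and 10 of the 24 member probe sets averaged under that median. The median was 6.40, and among those little above it were Birc3 1421392_a_at (6.63) and Casp8 1424552_at (6.45), whose groups did not overlap. Myh7, among these 16, averaged 8.57 and was called lower in KO (adjusted p = 0.00517), so the guide is a rough one.

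Xiap encodes the IAP that binds and blocks caspases directly, and lies on the X chromosome. Its brightest probe set, 1437533_at, read 10.91, 10.72 and 11.01 in the KO arrays and 10.82, 10.75 and 10.85 in the WT arrays. The groups overlapped, the difference was 0.07 ± 0.09, and the 95% interval ran from -9.35% to 21.4% as a change in level (adjusted p = 0.779). A second bright probe set, 1456088_at, differed by 0.01 ± 0.10. Xiap 1450232_at, dimmer, read 6.91, 6.77 and 6.97 in the KO arrays, against 6.57, 6.53 and 6.74 in the WT arrays. There every KO array was above every WT array, by 0.27 ± 0.09 on average, without passing (adjusted p = 0.179). The other 4 probe sets differed by -0.21 to 0.12, so that 5 of the 7 were higher and 2 lower in KO. The Xiap probe sets thus went different ways, and the brightest pair differed by less than 1450232_at. Among males, 1450232_at differed by 0.21 between the means of 2 KO and 2 WT arrays, and between the 1 KO and the 1 WT female by 0.40.

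Birc2 and Birc3 encode cIAP1 and cIAP2, which share their domain plan and are neighbours on mouse chromosome 9. Birc2 has 1 probe set, and it read 9.64, 9.56 and 9.42 in the KO arrays and 9.58, 9.61 and 9.60 in the WT arrays. The difference was -0.06 ± 0.08 (adjusted p = 0.794), with a 95% interval from -15.4% to 9.25%. The WT arrays were close to each other (SD 0.012), and KO array 3 was the lowest of the 6. Birc3 1421392_a_at read 6.75, 6.61 and 6.76 in the KO arrays, against 6.52, 6.54 and 6.59 in the WT arrays. The groups did not overlap, though KO array 2 was only just above WT array 3, and the difference of 0.15 ± 0.08 did not pass (adjusted p = 0.355). The second Birc3 probe set, 1425223_at, was dim and differed by -0.06 ± 0.07. The paralogs are close in sequence, and whether their probes cross-hybridise was not tested.

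The starts of these neighbours differ in base composition, and they are shown with those of Diablo and Apaf1, the members discussed below for their response to leaving out 1 array. The sequences are from RefSeq on GRCm38.p6, 5′ to 3′ on the gene's strand, cut to the part of the 250 bases before an annotated start that lies outside the gene's annotated span. Capitals mark CpG dinucleotides.
Birc2, chr9:7837132-7837307, minus strand: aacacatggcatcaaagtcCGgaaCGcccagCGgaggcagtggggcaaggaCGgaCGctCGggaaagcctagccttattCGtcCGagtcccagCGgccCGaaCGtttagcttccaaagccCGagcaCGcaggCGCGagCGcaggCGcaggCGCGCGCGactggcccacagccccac
Birc3, chr9:7873206-7873420, minus strand: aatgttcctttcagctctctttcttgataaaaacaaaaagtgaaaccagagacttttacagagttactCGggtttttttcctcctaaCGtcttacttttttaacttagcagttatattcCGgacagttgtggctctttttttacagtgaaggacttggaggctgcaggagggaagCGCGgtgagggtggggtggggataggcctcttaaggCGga
Diablo, chr5:123524165-123524414, minus strand: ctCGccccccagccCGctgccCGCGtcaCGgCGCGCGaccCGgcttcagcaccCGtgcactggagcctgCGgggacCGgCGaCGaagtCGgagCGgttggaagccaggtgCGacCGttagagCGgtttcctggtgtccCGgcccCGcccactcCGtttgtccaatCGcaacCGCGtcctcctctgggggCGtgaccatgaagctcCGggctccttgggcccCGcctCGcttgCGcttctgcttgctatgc
Apaf1, chr10:91082744-91082993, minus strand: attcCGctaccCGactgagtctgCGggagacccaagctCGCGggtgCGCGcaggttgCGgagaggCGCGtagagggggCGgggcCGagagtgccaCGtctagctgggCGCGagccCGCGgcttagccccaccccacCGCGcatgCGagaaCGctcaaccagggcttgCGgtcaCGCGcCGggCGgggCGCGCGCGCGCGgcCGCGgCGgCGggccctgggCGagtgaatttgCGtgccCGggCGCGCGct
The stretch before Birc2 held 21 CpGs in 176 bases and that before Birc3 only 6 in 215 bases. The Apaf1 stretch held 42 CpGs and the Diablo stretch 30, each in 250 bases. The median over 32851 windows of 250 bases before a start was 6 CpGs. Uncut, the windows of the Birc2 and Birc3 starts shown held 31 and 6. Another Birc2 window, inside the gene's annotated span, held 19. Among members not shown, the full windows held 25 CpGs for Casp9, 18 for Birc6, 5 for Casp8, and 1, 13 and 1 for Xiap. Both strands of the 11 windows annotated to the 8 genes were searched for an NF-kB site (GGGA, any pair of bases, TTCC), an E2F site (TTTCGCGC or TTTGGCGC), the ATF4 element (TGATGNAA) and an interferon element (GAAA, any pair of bases, GAAA). None of these letters occurred in the 11 windows, and they occurred in 1.21%, 0.654%, 3.45% and 2.98% of all windows, in that order. At such shares 11 windows would seldom hold a site, so their absence does not set these genes apart.

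Birc6 encodes BRUCE, a giant IAP that joins ubiquitin to its targets, Diablo among them. Its brightest probe set, 1419562_at, read 9.39, 9.01 and 9.47 in the KO arrays and 9.42, 9.47 and 9.42 in the WT arrays. KO array 2 alone was low, the difference was -0.15 ± 0.12 (adjusted p = 0.621), and without that array it was -0.0040. Birc6 1427488_a_at read 6.12, 6.13 and 5.86 in the KO arrays and 6.44, 6.30 and 6.12 in the WT arrays, with a difference of -0.25 ± 0.11 (adjusted p = 0.304). Of its 6 probe sets 5 were lower and 1 was higher in KO, between -0.25 and 0.03, and the 3 dimmest averaged between 3.77 and 4.04, with differences of -0.08 to -0.09.

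Diablo encodes the antagonist that works beside HtrA2. Diablo 1417683_at read 8.61, 8.92 and 8.62 in the KO arrays, against 8.92, 8.89 and 8.91 in the WT arrays. KO arrays 1 and 3 lay below every WT array and KO array 2 was level with the WT arrays. The difference was -0.19 ± 0.10 over all arrays (adjusted p = 0.387, 95% interval from -25.1% to 2.59%). The dimmer 1425768_at differed by -0.06 ± 0.09, with overlapping groups.

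Apaf1, the scaffold of the apoptosome, had the largest differences of the 8 genes, and both of its probe sets were higher in KO. Apaf1 1452870_at read 9.28, 8.89 and 9.41 in the KO arrays, against 8.54, 8.88 and 9.09 in the WT arrays. At this brighter probe set the groups overlapped. The difference was 0.35 ± 0.17, with a 95% interval from -2.60% to 67.9% (adjusted p = 0.347). Apaf1 1450223_at read 8.25, 8.04 and 8.40 in the KO arrays, against 7.77, 7.98 and 7.93 in the WT arrays. Here the groups did not overlap and the difference was 0.34 ± 0.11, or 26.4% with a 95% interval from 6.31% to 50.3%, which did not pass over all probe sets (adjusted p = 0.165). At both probe sets the female KO array was the highest of the 6 arrays and the female WT array the lowest. At 1450223_at the 2 male KO arrays exceeded the 2 male WT arrays by 0.19 and the female KO array exceeded the female WT array by 0.64, and at 1452870_at these values were 0.10 and 0.87. With 1 female in each group, sex cannot be told apart from the single arrays, and the sexes were not compared by a test.

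Casp9, the initiator caspase that Apaf1 activates, was not called at any of its 3 probe sets. Casp9 1437537_at read 7.67, 7.75 and 7.84 in the KO arrays and 7.64, 7.70 and 7.68 in the WT arrays, a difference of 0.08 ± 0.08 (adjusted p = 0.679, 95% interval from -6.44% to 19.2%). The other pair differed by -0.02 ± 0.11 and -0.02 ± 0.12, with 95% intervals from -16.7% to 17.4% and from -19.2% to 20.3%. Casp8, the initiator caspase of death receptors, had 1 probe set, at 6.46, 6.24 and 6.44 in the KO arrays and 6.47, 6.59 and 6.48 in the WT arrays. Every KO array was below every WT array, though KO array 1 and WT array 1 were nearly level, and the difference was -0.13 ± 0.09 (adjusted p = 0.502).

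**Figure D2:**
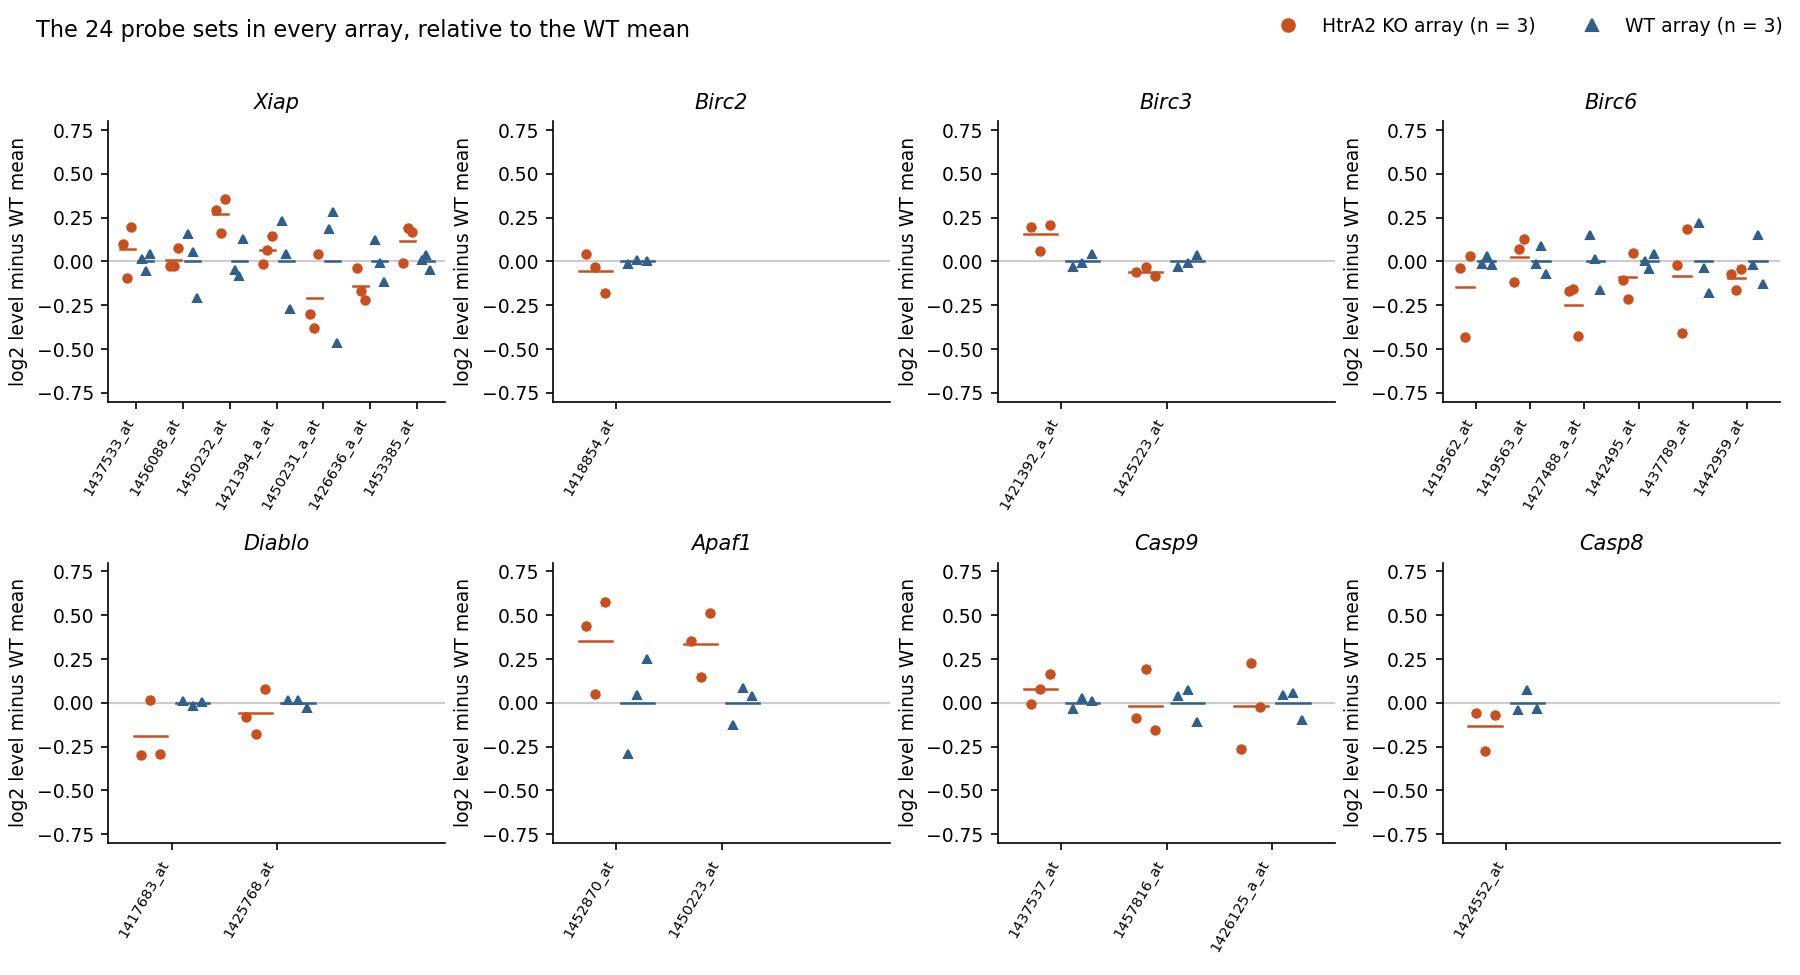
Log2 level of each array minus the WT mean of its probe set, for the 24 probe sets of the 8 genes, brightest first within a gene; circles are the 3 HtrA2 KO arrays, triangles the 3 WT arrays, in the order of their numbers, and bars the group means. Both Apaf1 probe sets have KO means above the WT mean, Diablo 1417683_at has KO arrays 1 and 3 below every WT array, and most other probe sets overlap.

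Leaving out arrays changed the calls of 2 genes. Without KO array 2, Diablo 1417683_at differed by -0.29 (adjusted p = 0.0414) and Apaf1 1450223_at by 0.43 (adjusted p = 0.0389), so 2 of 24 probe sets were called where 6.74% of all were. In the 5 other omissions of 1 array no member was called, the share of all probe sets called being as low as 0.155% without WT array 1 and 0.144% without WT array 2. In these 5 Diablo 1417683_at stayed between -0.20 and -0.14 and Apaf1 1450223_at between 0.25 and 0.38. With array weights, which give less weight to arrays far from the rest, Apaf1 1450223_at (adjusted p = 0.0350) and Xiap 1450232_at (0.34, adjusted p = 0.0314) were called and Diablo was not, where 9.34% of all probe sets were called. At Birc6 1419562_at, Diablo 1417683_at and Apaf1 1450223_at the omission of KO array 2 gave the value farthest from that of all 6 arrays, as the plot of the omissions shows.

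**Figure D3:**
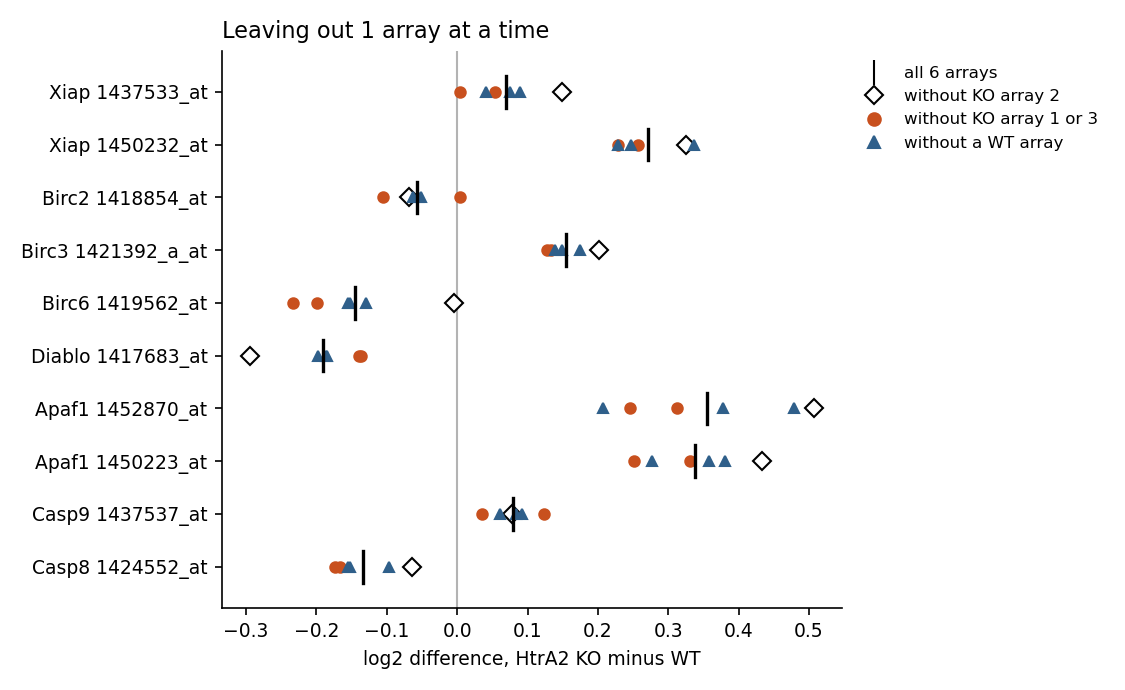
Log2 difference, HtrA2 KO minus WT, at the brightest probe set of each gene and at Apaf1 1450223_at and Xiap 1450232_at, with all 6 arrays (vertical bars) and with 1 array left out (symbols). The open diamonds, without KO array 2, lie at -0.29 for Diablo and 0.43 for Apaf1 1450223_at, the omission in which both were called.

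Over the 6 arrays, the genes whose level followed Apaf1 1450223_at most closely were Luc7l2 (Pearson r = 0.999), Kat14 (r = 0.994) and Tsr1 (r = 0.994). They came from 20428 single-gene probe sets of non-member genes, each with a mean above the median of all probe sets tested. The points are the same 6 arrays, and so many candidates over so few arrays give high values readily.

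Genes around these members in the cell death pathways were read from 8 lists, which held 68 measured genes beside the 8 members. Of these 68 genes 4 had a called probe set (5.88%), where 3.3% of all genes had one, and Htra2 is 1 of the 4. The medians of the 8 lists lay between -0.06 and 0.13, the median over all genes was 0.02, and that of the 8 members 0.01. The plot by list shows that the larger differences belong to single genes.

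Of 7 measured regulators of IAPs, Xaf1 rose and Uba6 fell, Htra2 was called at both of its probe sets in opposite directions, and 4 were not called. Xaf1 binds XIAP and counters its block of caspases, and is induced by interferon. Xaf1 1443698_at read 8.33, 8.01 and 8.55 in the KO arrays, against 7.28, 7.38 and 7.48 in the WT arrays, a rise of 0.92 ± 0.13 (adjusted p = 0.0227). All KO arrays were above all WT arrays, but the second Xaf1 probe set, which was dim, differed by -0.02 ± 0.11. Uba6 is the ubiquitin-activating enzyme that serves Birc6. Uba6 1428944_at read 8.02, 7.56 and 7.59 in the KO arrays, against 8.34, 8.33 and 8.47 in the WT arrays, a fall of 0.66 ± 0.13 just past the threshold (adjusted p = 0.0490). Another 3 of its 5 probe sets were lower by 0.28 to 0.75 without passing, and the fifth, dim, differed by 0.02. Over the 6 omissions of 1 array, Xaf1 1443698_at differed by 0.79 to 1.06 and was called in 1, without KO array 2. Uba6 1428944_at differed by -0.80 to -0.57 and was called in 2, without KO array 1 and without KO array 2. Fewer arrays also leave fewer calls over all probe sets, 65 to 377 in the 5 omissions other than that of KO array 2.

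Of 8 measured genes listed as apoptosome and intermembrane space factors, Hspa9 was called besides the knocked-out Htra2, and 6 were not called. Hspa9 encodes the Hsp70 chaperone of the mitochondrial matrix, so it is not a factor of the kind the list is named for. Its probe set 1418503_at read 10.93, 10.81 and 10.99 in the KO arrays, against 10.24, 10.24 and 10.34 in the WT arrays. All KO arrays were above all WT arrays, a rise of 0.64 ± 0.08 (adjusted p = 0.0141). Hspa9 was called at 2 of its 5 probe sets. Over the omissions 1418503_at differed by 0.60 to 0.69 and was called in 2 of the 6. Cycs, which encodes the cytochrome c that triggers Apaf1, was not called, and it is named here outside the rule, after its values were seen. Its 4 probe sets were each lower in every KO array than in any WT array, by 0.29 to 0.41, with adjusted p between 0.0705 and 0.128. Of all probe sets 23.2% had groups that did not overlap. These 4 read the same gene in the same arrays, so they are not independent of each other.

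Among 6 other measured caspases 0 were called, and all 6 had differences above 0 at their brightest probe sets, with a median of 0.13. Of all 18193 genes, 9983 had a difference above 0 at the brightest probe set. The 95% intervals of all these caspases but Casp1 included 0, and the dimmer Casp6 1458715_at differed by -0.03. Casp1, the caspase of inflammasomes that matures interleukin-1 beta, read 7.18, 6.41 and 7.47 in the KO arrays, against 6.00, 6.05 and 6.20 in the WT arrays. All KO arrays were above all WT arrays, and the difference of 0.94 ± 0.24 did not pass (adjusted p = 0.0960). KO array 2 was the nearest of the KO arrays to WT. Over the 6 omissions Casp1 differed by 0.71 to 1.24 and was called in 1, without KO array 2 (adjusted p = 0.00381), where 6.74% of all probe sets were called. Casp12, a caspase of the endoplasmic reticulum, differed by 0.29 ± 0.13 at its brighter probe set (adjusted p = 0.330). Of the 7 inflammasome genes, Casp1 included, 0 were called, and the DNA sensor Aim2 differed by 0.17 ± 0.07 at a dim probe set.

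None of the 4 other IAP genes measured was called, and Birc5 (survivin) and Naip6 differed by -0.16 ± 0.08 and 0.09 ± 0.11. None of 16 genes of death receptor complexes was called either (median -0.06). There Cyld, a deubiquitinase that counters cIAP signals, differed by -0.34 ± 0.10 at the probe set with its smallest p and by -0.08 ± 0.08 at its brightest, with the other pair at -0.17 and -0.13. Cflar, the decoy that restrains caspase-8, had its smallest p at the dimmest of its 5 probe sets, with a difference of -0.22 ± 0.07. The other 4 lay between -0.09 and 0.26, with the brightest at 0.05 ± 0.09. Of 12 genes of the NF-kB pathway downstream of cIAPs 0 were called (median -0.01), with Tnfaip3, a target that feeds back on the pathway, at -0.39 ± 0.12 and Ikbkb, an inhibitor-of-kB kinase, at -0.25 ± 0.08 (its brightest probe set at -0.20 ± 0.11). Of 10 genes whose products caspases cut or that act in dismantling cells, 0 were called. Parp1 and Gsn (gelsolin), both cut by executioner caspases, came nearest, at -0.40 ± 0.08 and -0.46 ± 0.09 at the probe sets with their smallest p, and at -0.31 ± 0.07 and -0.50 ± 0.11 at their brightest. The adjusted p of each was 0.0503, just outside the threshold.

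**Figure D4:**
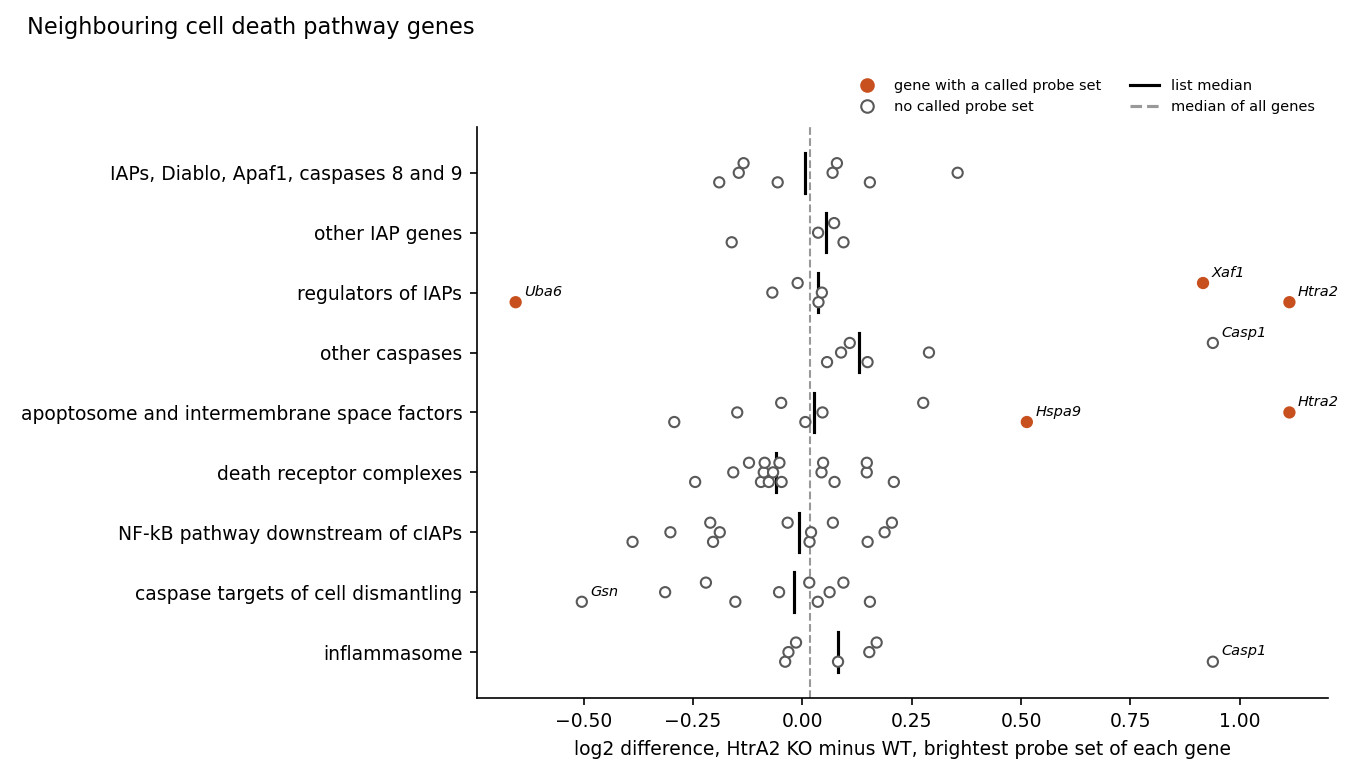
Log2 difference, HtrA2 KO minus WT, at the brightest probe set of each measured gene, by list; filled points are genes with a called probe set, short vertical bars the list medians and the dashed line the median of all genes (0.02). The 8 members lie between -0.19 and 0.35, and the labelled points are the 6 genes with the largest absolute differences, among them the knocked-out Htra2, plotted at the probe set that was higher in KO (1.11).

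Levels of cell type markers differed between the groups beside these values. In such bulk tissue, fewer cells of a type and less RNA per cell cannot be told apart. The counts below are of markers with a called probe set, where 3.3% of all genes had one, 298 higher and 304 lower with Htra2 in both. Of 9 microglial markers 3 fell and 0 rose, and their mean level was 8.88 to 8.95 in the KO arrays, against 9.10 to 9.31 in the WT arrays. Of 7 oligodendrocyte markers 1 fell, with means of 11.30 to 11.39 in the KO arrays and 11.60 to 11.74 in the WT arrays. Of 8 astrocyte markers 1 rose and 3 fell, with means of 10.77 to 10.87 in the KO arrays and 10.99 to 11.03 in the WT arrays. The 8 meningeal markers were not called but averaged 9.30, 9.03 and 9.62 in the KO arrays, against 8.84, 8.81 and 9.09 in the WT arrays. Of 10 neuronal markers 0 were called, with means of 12.18 to 12.24 in the KO arrays and 12.30 to 12.35 in the WT arrays. Of 6 blood and lymphocyte markers 1 fell, Alas2 of red cells, with means of 6.05 to 6.16 in the KO arrays and 6.29 to 6.34 in the WT arrays. Of 7 endothelial markers 0 were called, with means of 8.18 to 8.24 in the KO arrays and 8.04 to 8.15 in the WT arrays. Of 7 choroid plexus markers 0 were called and all 7 differences were below 0, with means of 5.26 to 5.48 in the KO arrays, against 5.46, 6.80 and 5.65 in the WT arrays. WT array 2 stood apart there, with Ttr at 12.86. The mean over the 8 members' brightest probe sets was 8.46 to 8.62 in the KO arrays and 8.49 to 8.58 in the WT arrays. What part these cell markers have in the members' values was not tested.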

How the data were processed

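The deposited table holds 1 column of log2 values per array. Per the submitters' processing notes these came from RMA (background correction, quantile normalization, 1 summary per probe set), with no version stated. No label states the base of the logarithm, which the range of the values puts at 2. RMA would hide a shift shared by most genes. From the deposited values, 64 control probe sets were left out and 45037 tested without a brightness filter. Of these 34945 carry 1 symbol in the platform annotation, 932 several and 9160 none, and 34741 took their current name from RefSeq's GRCm38.p6 gene table.

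HtrA2 KO was compared with WT in limma 3.58.1 (R 4.3.3; lmFit, eBayes, group as the only term). The code was checked on simulated data with independent noise and added shifts larger than any member difference. That check does not cover differences as small as those of the members. Members and lists were chosen with earlier results of these data known. Of each list up to 4 genes with a called probe set are named, or the 2 with the smallest p. Replicate numbers are not said to pair animals. Lists were described, not tested as sets. Array number, 3 per group, limits the precision.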

Additional observations from a re-analysis of the deposited data

How the results depend on the processing

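With all 24 member probe sets, 0 were called by limma at an adjusted p under 0.05, and 2 had an unadjusted p under 0.05. The members stayed at 0 calls except with array weights (2) and over the omissions of 1 array (0 to 2). The count over all probe sets was 796. It became 1757 with dim probe sets left out, 1770 with limma-trend and robust moderation, 4205 with array weights, 154 with the replicate block, 445 with Y-linked expression added to the fit, 314 with both arrays numbered 2 left out, 2035 and 79 at adjusted p under 0.10 and 0.01, and 65 to 3037 over the omissions of 1 array. The count of genes called in the pathway lists was 4, and 7 with dim probe sets left out, 7 with limma-trend, 15 with array weights, 2 with the replicate block, 8 and 1 at the looser and stricter thresholds, and 1 to 13 over the omissions.

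Directions turned for 24 of 334 member values over 15 settings. Casp9 1457816_at became 0.0016 with further quantile normalization. With array weights Xiap 1456088_at became -0.012, Birc6 1419563_at -0.015 and Birc6 1437789_at 0.031. With both arrays numbered 2 left out, Xiap 1450231_a_at became 0.013, Birc6 1419562_at 0.012, Birc6 1437789_at 0.065, Birc6 1442959_at 0.018 and Diablo 1425768_at 0.0062. Over the omissions of 1 array, Xiap 1456088_at ran from -0.097 to 0.085, Xiap 1421394_a_at from -0.071 to 0.18, Birc2 1418854_at from -0.11 to 0.0041, Birc6 1419563_at from -0.023 to 0.10, Birc6 1437789_at from -0.21 to 0.083, Casp9 1457816_at from -0.12 to 0.053 and Casp9 1426125_a_at from -0.14 to 0.10. None of these values was called, and the cause of the turns was not tested. Deviations from the group means correlated at -0.20, -0.04 and -0.17 between same-numbered KO and WT arrays, so the numbers were not taken as pairs. The arrays numbered 1, and those numbered 3, came from opposite sexes. The highest value of any KO and WT array was 0.22, between KO array 3 and WT array 1, both female. Under the replicate block no member was called.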
